A study of Rattus norvegicus with 31 samples.

Results

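Cytosolic ribosomal protein genes encode the proteins of the small (40S) and large (60S) subunits of the cytosolic ribosome. They were taken here as the rows of the count table whose symbol is Rpl or Rps followed by a number, or is Rpsa, Rplp0, Rplp1 or Rplp2, and whose raw counts averaged at least 10 over the libraries. The members were thus selected on their mean raw count over all groups, by a rule that used no difference between groups. The family and this rule were, however, chosen with earlier results of these data known. The shares of members called below are therefore not those of a set chosen blind to the results. S6 kinases, symbols marked as pseudogenes, the like paralogs and the binding protein Rps19bp1 were left out. The rule gave 73 rows, called members below, of 26312 rows in the table, and they carried 70 symbols, since Rps9, Rpl6 and Rps24 each had 2 rows. Of these rows 31 belonged to the 40S subunit, 39 to the 60S subunit and 3 to the stalk of the 60S subunit. All 73 were among the 19904 genes tested, and none had a count of 0 in any library.

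The count minimum cut through an empty stretch of values. The member just inside it was Rpl12, with a mean of 34.97 counts, and the row just outside it was a second row of Rpl32, with a mean of 7.52 counts. In all, 13 rows with 11 symbols fell under the minimum. For 4 symbols, which were Rps6, Rps19, Rpl21 and Rpl37a, no other row remained, so that these genes were not analysed here. The Rps6 row held 0 reads in all libraries and the rows of Rps19 averaged 3.39 and 5.48 counts. Ribosomal protein genes have many processed pseudogenes of nearly the same sequence, and such counts say nothing of how strongly these genes are expressed. The values of members with near-identical copies are uncertain for the same reason.

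Ribosomal proteins are made in balanced amounts and assembled with ribosomal RNA in the nucleolus before the subunits move to the cytosol. Their mRNAs begin with a stretch of pyrimidines directly at the cap, the terminal oligopyrimidine (TOP) tract, through which mTORC1 and the RNA-binding protein Larp1 control their translation. The liver makes large amounts of secreted protein, and its ribosome content changes with feeding and with hepatocyte growth. A number of ribosomal proteins also have roles away from the ribosome, such as the binding of Mdm2 by Rpl5 and Rpl11.

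The study compared livers of 31 female Crl:WI Wistar rats after 28 days of daily gavage. The 8 controls received the vehicle alone, 0.5% carboxymethyl-cellulose, and all treated rats received it with the compound. The single compounds were the neonicotinoids thiacloprid (THI, 108 mg/kg bw/day, 4 rats) and clothianidin (CTD, 288 mg/kg bw/day, 3 rats) and the azole fungicide imazalil (IMZ, 93 mg/kg bw/day, 4 rats). The paper marks this CTD group for at least 1 rat killed in moribund condition, and no other group sequenced here bears that mark. The mixtures held THI at 54 with IMZ at 46, THI at 54 with CTD at 134, and IMZ at 46 with CTD at 135 mg/kg bw/day, each in 4 rats. Each library came from 1 rat and total liver RNA, so that fewer cells of a type and less RNA per cell cannot be told apart. Doses differed between compounds, and no lower dose of a single compound was analysed here, which leaves no dose series.

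The libraries held between 31820322 and 101230067 counts. The 16 measured hepatocyte markers together reached 186600 to 281300 CPM (counts scaled to a common library size) in all groups, and none of them was at 0 in a group. In CTD 4 of the 16 fell and none rose, with a median log2 fold change of -0.18. In THI+CTD 3 fell and none rose, with a median of -0.27. Of 12 endothelial markers 3 fell and none rose in CTD, with a median of -0.23. Of all genes tested, 6.03% fell in CTD and 1.71% in THI+CTD. In CTD all 30 genes of a cell division list rose, and their summed level was 98.0 to 342 CPM, against 17.2 to 40.2 in controls. Of 8 red blood cell genes 5 rose and 1 fell in CTD, with a summed level of 160 to 196 against 28.7 to 70.8 in controls. Of 15 Kupffer cell and macrophage markers none rose and 5 fell in CTD, with a summed level of 588 to 888 against 748 to 1103. Transcripts of the 4 mitochondrially encoded genes found took 1.38% ± 0.174 (SD, n = 3) of counts in CTD and 1.03% ± 0.176 (SD, n = 8) in controls. The part of these shifts in the results below was not tested.

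The annotated start of the transcript is shown for 9 members because the TOP tract would lie there and because the results below turn on them. The sequences are those of RefSeq on build GRCr8, each from 20 bases before to 20 bases from the annotated start on, 5′ to 3′. Capitals mark the longest run of at least 8 pyrimidines that touches this window. The first 5 fell most clearly in CTD, Rps24 rose there, Rps21 fell furthest in THI+CTD, Rpl22 fell there too, and Rpl41 fell in CTD.
Rps16 (chr1:92770638-92770677, + strand): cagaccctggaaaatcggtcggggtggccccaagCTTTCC
Rps28 (chr7:15311314-15311353, - strand): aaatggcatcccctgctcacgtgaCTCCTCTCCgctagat
Rps15 (chr7:10068096-10068135, - strand): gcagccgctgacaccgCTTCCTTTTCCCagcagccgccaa
Rpl38 (chr10:100200415-100200454, + strand): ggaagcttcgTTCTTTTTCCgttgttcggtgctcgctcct
Rplp2 (chr1:205975901-205975940, + strand): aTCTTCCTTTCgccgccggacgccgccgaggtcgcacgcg
Rps24 (chr16:96497-96536, + strand): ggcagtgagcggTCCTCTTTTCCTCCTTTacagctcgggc
Rps21 (chr3:187724018-187724057, + strand): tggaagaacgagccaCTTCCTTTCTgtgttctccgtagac
Rpl22 (chr5:168117941-168117980, + strand): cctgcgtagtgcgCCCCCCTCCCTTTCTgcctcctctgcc
Rpl41 (chr7:1563478-1563517, - strand): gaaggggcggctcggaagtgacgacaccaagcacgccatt
In Rps15, Rps24, Rps21 and Rpl22 the run crossed the annotated start, in Rps28 and Rps16 it began further downstream, and in Rplp2 and Rpl38 it ended upstream of it. The Rpl41 window held no such run. Transcript starts were not measured in these data, so that a window without a run at the annotated start does not show that the mRNA lacks a TOP tract.

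Of the 70 member symbols 56 were matched to a RefSeq promoter entry. A pyrimidine run of at least 8 bases on the sense strand touched the window in 46 of these 56 symbols (82.1%), against 22.8% of all 27457 symbols in the table. A run of at least 8 that covered the annotated start, or ended directly before it, was found for 34 members (60.7%) and 5.83% of all symbols. A run of at least 12 touching the window was found for 42.9% of the members and 5.75% of all symbols. The ETS-type core CTTCCG, searched on both strands over all 300 bases of each entry, was present for 31 members (55.4%) and 18.2% of all symbols. The stretch CTTTCC, which can lie within a pyrimidine run, was searched in the same way and was present for 26 members (46.4%) and 28.1% of all symbols. The run of at least 8 was found for 14 of the 16 matched symbols that fell in CTD (87.5%) and for 32 of the 40 others (80%).

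The level of the family as a whole was followed in each rat. The members took 0.953% ± 0.041 (SD, n = 8) of all counts in controls, with a lowest value of 0.897, a median of 0.949 and a highest value of 1.03%. The share was 0.908% ± 0.053 in THI, 0.946% ± 0.019 in IMZ, 0.936% ± 0.060 in THI+IMZ, 0.907% ± 0.089 in THI+CTD and 0.983% ± 0.030 in IMZ+CTD (SD, n = 4 each). In CTD it was 0.903% ± 0.064 (SD, n = 3). The values of every treated group overlapped those of the controls.

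After scaling by the trimmed mean of M-values (TMM), the mean log2 CPM over the 73 members was 6.39 at the lowest, 6.42 at the median and 6.50 at the highest control rat. It was 6.20, 6.16 and 6.38 in the 3 CTD rats, so that all of them lay below the lowest control, the third by less than 0.01. With Rps16 left out of the mean, the third CTD rat, at 6.43, lay within the control range of 6.39 to 6.50, and the other 2 lay below it. The 4 THI+CTD rats, at 6.28, 6.26, 6.17 and 6.36, all lay below the controls. For rat 4 this held only after TMM scaling, where its factor was 1.10. Its members took 1.03% of its counts, as in the highest control. The IMZ+CTD rats lay at 6.45, 6.44, 6.55 and 6.47, within and above the control range. In THI+IMZ, rat 3 reached 6.57, the highest value of the study, while the other 3 lay between 6.30 and 6.41.

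**Figure D1:**
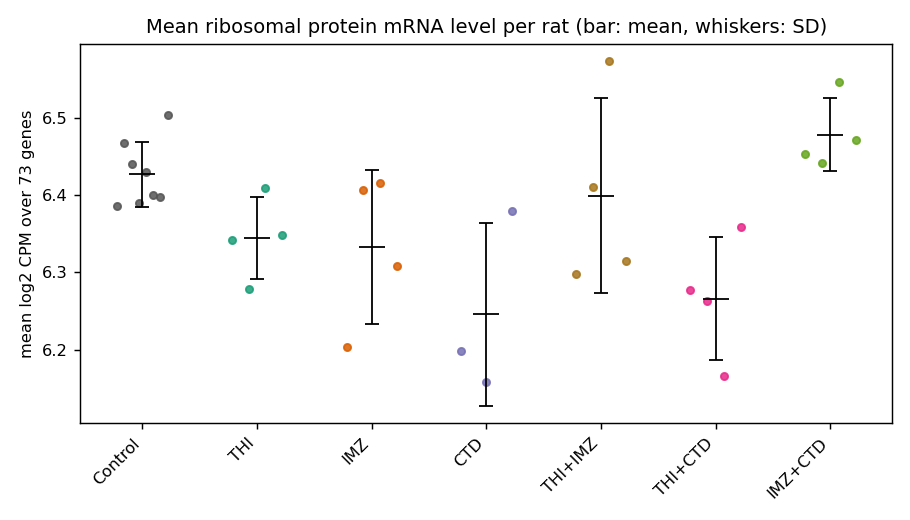
Mean log2 CPM over the 73 ribosomal protein genes (vertical axis) in each rat, by treatment group (horizontal axis), with 1 point per rat, bars at the group mean and whiskers of 1 SD. After TMM scaling the 4 THI+CTD rats sit between 6.17 and 6.36, below all 8 controls at 6.39 to 6.50. The IMZ+CTD rats sit between 6.44 and 6.55.

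Within groups the members varied little and varied together. The SD of log2 CPM among rats of the same group had a median of 0.11 over the members and ranged from 0.07 to 0.48. For the other 7564 genes at or above the 5th percentile of the members' average level the median was 0.16. In the 68 members with an average log2 CPM of 3 or more, the first principal component held 44.1% of the within-group variance, and all 68 had the same sign on it, whereas the first component of the other genes held 18.4%. Members share library and normalization, which also makes them vary together. The widest within-group SD among those 68 members was that of Rps16, at 0.34, followed by Rpl17 at 0.24 and Rpl30 at 0.21.

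A part of the family was lower in CTD, and 1 member by far more than the rest. In CTD against control 17 of the 73 members fell and 1 rose at an adjusted p under 0.05, by edgeR's quasi-likelihood test adjusted over all 19904 genes. The called members made up 24.7% of the family, whereas 12.7% of all genes tested were called, and 21.9% of the genes at or above the 5th percentile of the members' average level. The background was 6.03% for falling genes and 6.62% for rising ones, and the falling members made up 23.3%. Among the genes at or above that level 11.8% fell. The median log2 fold change was -0.14 over the members and -0.07 over all genes, and 57 members had a negative value. All 3 CTD rats lay below all 8 controls in 17 members and above them in 3, as against 5.47% and 5.33% of all genes.

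Rps16 (ENSRNOG00000019578), whose tail reaches the P site of the small subunit, fell furthest. Its level was 20.0, 7.16 and 6.86 CPM in the 3 CTD rats, against 54.2 at the lowest, 66.8 at the median and 94.4 at the highest control. The log2 fold change was -2.64 (SE 0.24, adjusted p = 8.642e-09), a ratio of 0.16 to control. Among all genes tested its p-value ranked 12th in this comparison. The 20 rats of the other 5 treated groups lay between 50.6 and 92.5 CPM, far above the CTD rats, and the mixtures that contained CTD at a lower dose were among them. The values were 69.9, 65.3, 52.95 and 77.1 in THI+CTD and 75.7, 76.2, 82.9 and 92.5 in IMZ+CTD. No other member changed by more than 1 on the log2 scale in any comparison with control.

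Rps28 (ENSRNOG00000042886), a small protein near the mRNA exit of the 40S subunit, had 27.6, 30.5 and 32.02 CPM in CTD and 44.4, 49.5 and 53.8 at the lowest, median and highest control. It fell by 0.71 on the log2 scale (SE 0.08, adjusted p = 4.306e-07), with no overlap between the groups. Rps15 (ENSRNOG00000024603), which is needed for export of the pre-40S particle from the nucleus, had 73.9, 71.2 and 92.0 CPM in CTD, all below the controls at 108, 115 and 127. Its log2 fold change was -0.56 (SE 0.08, adjusted p = 1.586e-05). The 60S protein Rpl38, which mouse mutants link to the translation of Hox mRNAs, had 42.6, 54.1 and 49.96 CPM in CTD, against controls of 62.8, 67.2 and 69.9. It fell by 0.46 on the log2 scale (SE 0.07, adjusted p = 4.239e-05), again without overlap. Rplp2, an acidic stalk protein that helps to recruit the elongation factors, had 16.1, 21.1 and 20.6 CPM in CTD and 24.9, 27.8 and 29.4 in controls. The log2 fold change was -0.50 (SE 0.10, adjusted p = 7.223e-04), and the groups did not overlap either.

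The other members that fell in CTD were Rps2, Rps3, Rps10, Rps14, Rps27, Rpl3, Rpl10a, Rpl13, Rpl32, Rpl36, Rpl37 and Rpl41. Their log2 fold changes lay between -0.42 and -0.26. In Rps14, Rpl3 and Rpl32, 1 of the 3 CTD rats lay within the control range, and in the others the groups were separate. Both subunits contributed, since 8 of 31 members of the 40S, 8 of 39 of the 60S and 1 of 3 of the stalk fell. Their median log2 fold changes were -0.20, -0.12 and -0.17.

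The 1 member that rose in CTD was the larger row of Rps24, a 40S protein with alternatively spliced mRNA. It had 115, 127 and 131 CPM in CTD, above the controls at 102, 108 and 112, and its log2 fold change was 0.20 (SE 0.06, adjusted p = 0.0323). The second row of Rps24 had a log2 difference of 0.20 too (SE 0.11), and it did not pass the test (adjusted p = 0.271). The call of the larger row did not hold without CTD rat 2 (adjusted p = 0.125) or without rat 3 (adjusted p = 0.164).

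The number of falling members in CTD depended on single rats. Without CTD rat 1 it was 8, and without rat 2 it was 7. With library totals in place of TMM factors 7 members fell and 2 rose, and the median went to -0.06.

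**Figure D2:**
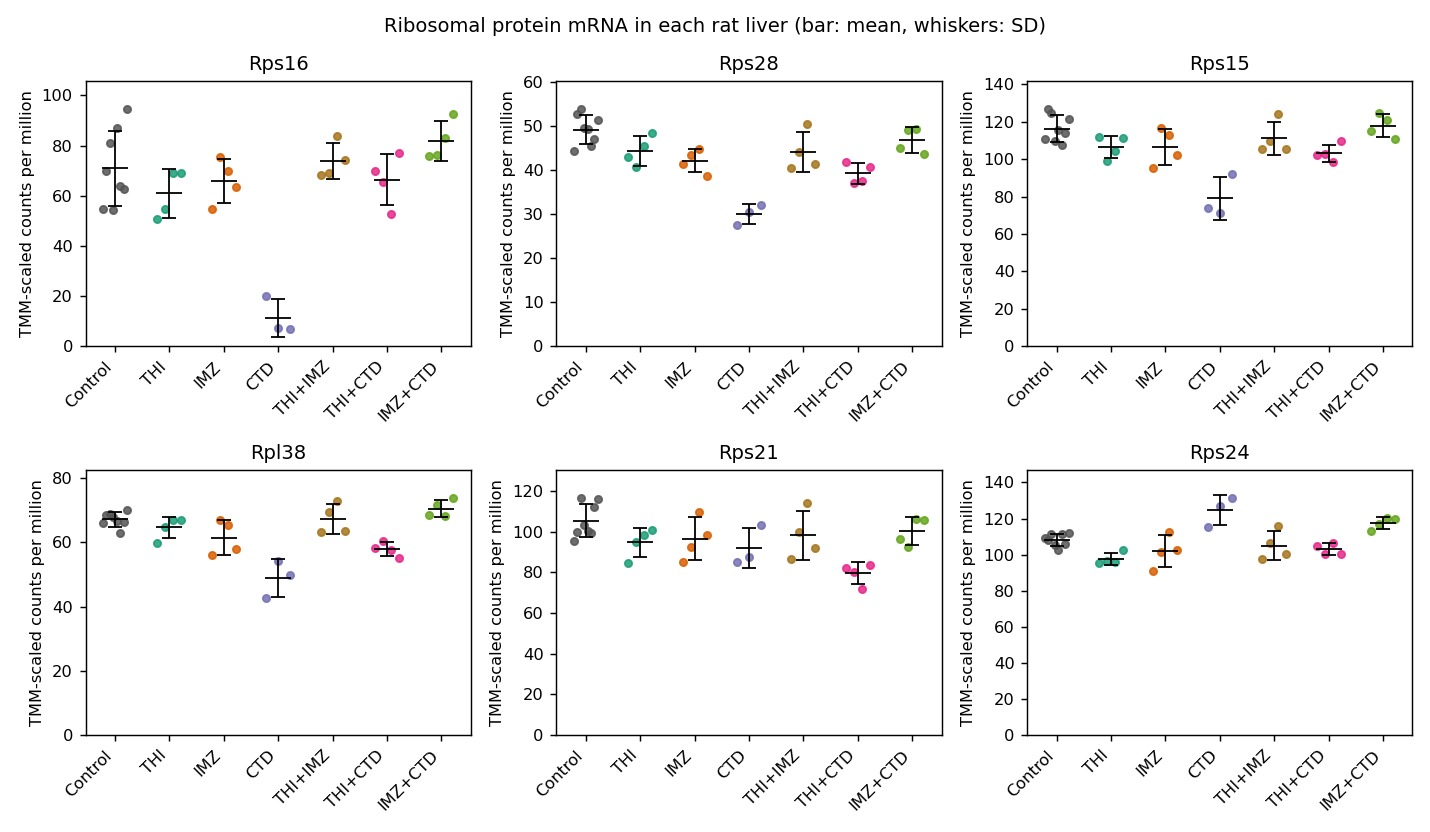
TMM-scaled CPM (vertical axes, from 0) of 6 ribosomal protein genes in each rat, by treatment group, with 1 point per rat, bars at the mean and whiskers of 1 SD. Rps16, Rps28, Rps15 and Rpl38 in the 3 CTD rats lie below all controls, Rps21 is lowest in THI+CTD, and the larger row of Rps24 is highest in CTD.

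In the mixture THI+CTD fewer members were called than in CTD, and none of them fell as far as Rps16 did there. Against control 10 members fell and none rose. The 13.7% of members that fell compare with 1.71% of all genes that fell, 4.39% of all genes called in either direction, and 3.26% that fell among genes at or above the 5th percentile of the members' level. The median log2 fold change was -0.17 over the members and -0.03 over all genes, and 67 of the 73 values were negative. The 4 rats lay below all controls in 15 members, against 1.82% of all genes.

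Rps21 (ENSRNOG00000006325), a small 40S protein, had 82.4, 80.3, 71.9 and 83.9 CPM in the 4 THI+CTD rats and 95.6, 102 and 116 at the lowest, median and highest control. It fell by 0.41 on the log2 scale (SE 0.08, adjusted p = 3.006e-03), and the groups were separate. Rpl36, of the 60S subunit, had 50.5, 41.4, 42.7 and 53.7 CPM, below controls of 56.5, 59.3 and 66.3, with a log2 fold change of -0.35 (SE 0.07, adjusted p = 4.342e-03). Rps14, a protein of the 40S platform, had 82.3, 73.7, 54.1 and 84.6 CPM against 83.1, 98.4 and 103 in controls, where the fourth rat overlapped the control range. Its log2 fold change was -0.37 (SE 0.10, adjusted p = 0.0343). The value of Rps14 rested on rat 3, without which it was -0.25 and not called (adjusted p = 0.23).

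The other members that fell in THI+CTD were Rps15a, Rps27, Rps28, Rpl22, Rpl23, Rpl34 and Rpl35a, with log2 fold changes between -0.34 and -0.23. Rps28 had -0.33 here (SE 0.07), with 41.8, 37.0, 37.4 and 40.8 CPM, below all controls and above the CTD rats. Both subunits gave 5 of the 10. The comparisons of CTD and of THI+CTD share the 8 control rats, so that their lists are not independent. The count fell to 3 when THI+CTD rat 2 or rat 3 was left out and to 6 without rat 1. It was 6 without control rat 2, 5 without control rat 3 and 4 without control rat 7 or 8. Library totals in place of TMM factors left 3.

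The mixture IMZ+CTD had the opposite sign for most of the family, without a member passing the test. Of the 73 members 57 had a positive log2 difference from control, with a median of 0.07, against -0.03 over all genes, and by edgeR's test none was called, where 1.46% of all genes were. At an unadjusted p under 0.05, 7 members were higher and none lower, and 6.41% of all genes were higher. DESeq2 called 1 member. Rps20, of the 40S subunit, had the largest value at 0.22 (SE 0.08, adjusted p = 0.159). Its 4 rats had 144, 137, 142 and 160 CPM, above all controls, which had 119, 124 and 133 at the lowest, median and highest rat. Rpl36 had the lowest value among members with an average log2 CPM above 3, at -0.15 (SE 0.07, adjusted p = 0.398). All 4 rats lay above all controls in 4 members, against 1.61% of all genes.

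THI, IMZ and THI+IMZ called no member at this threshold. All genes were called at 0.543% in THI, 0.251% in IMZ and 1.18% in THI+IMZ. In THI 69 of 73 log2 differences were negative, with a median of -0.08, and 6 members (of 73) were lower at an unadjusted p under 0.05, as were 4.25% of all genes. DESeq2 called none. All 4 THI rats lay below all controls in 7 members, against 0.688% of all genes. In IMZ 69 were negative as well, with a median of -0.10, and 8 were lower at an unadjusted p under 0.05, as were 3.91% of all genes. The IMZ median was -0.02 with library totals in place of TMM factors and -0.05 without IMZ rat 1. In THI+IMZ 42 were negative, with a median of -0.02, which was -0.08 without THI+IMZ rat 3, and 2 were lower at an unadjusted p under 0.05, as were 5.21% of all genes. The median over all genes lay between -0.02 and -0.01 in these comparisons. Among members with an average log2 CPM above 3, the values in THI ran from -0.26 (SE 0.10) for Rpl35a to 0.07 (SE 0.11) for Rpl4. In IMZ they ran from -0.22 (SE 0.07) for Rps28 to 0.06 (SE 0.08) for Rpl8. In THI+IMZ they ran from -0.16 (SE 0.07) for Rps28 to 0.13 (SE 0.08) for Rps4x. A missed threshold does not show that a level was unchanged. For the stalk protein Rplp0, often used as a reference gene in PCR, the 95% interval of the log2 difference was -0.15 to 0.13 in THI and -0.21 to 0.08 in IMZ.

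**Figure D3:**
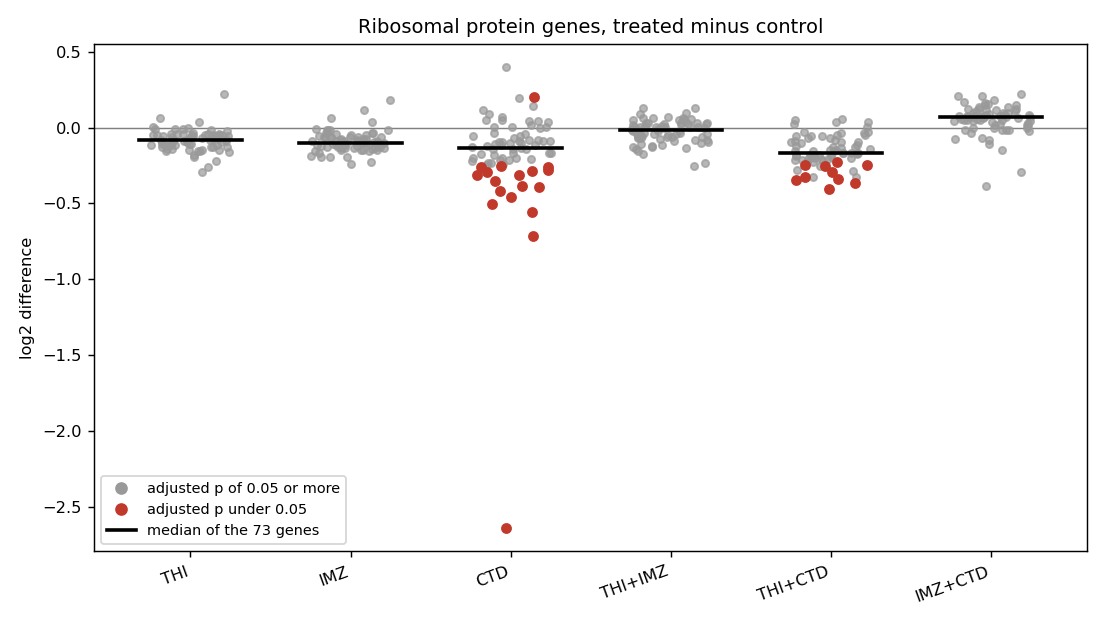
Log2 difference from control (vertical axis) of the 73 ribosomal protein genes in the 6 treated groups (horizontal axis), with 1 point per gene, red where the adjusted p is under 0.05, and a bar at the median. CTD has 18 red points with Rps16 alone at -2.64, THI+CTD has 10 red points, all below 0, and the other 4 groups have none.

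The members with known roles at key sites of the ribosome or outside it were taken as a fixed set. Rpl3, which lines the peptidyl transferase centre, fell in CTD by 0.35 on the log2 scale (SE 0.10, adjusted p = 0.0204), and Rps3, at the mRNA entry, fell by 0.31 (SE 0.08, adjusted p = 8.466e-03). Rps27, which carries a zinc finger, fell in CTD by 0.31 (SE 0.10) and in THI+CTD by 0.29 (SE 0.09). Rpl22, an RNA-binding 60S protein, fell in THI+CTD by 0.25 (SE 0.07, adjusted p = 0.039), and in CTD its log2 difference was 0.09 (SE 0.08, adjusted p = 0.508). Rpl5 and Rpl11, which bind Mdm2 together, had log2 differences of -0.14 (SE 0.08) and -0.17 (SE 0.07) in CTD and did not pass. Rpl10, which completes the 60S subunit, had 0.01 (SE 0.07), and Rpsa, known also as the laminin receptor, had -0.04 (SE 0.07). Rps27a, made as a fusion with ubiquitin, had -0.04 (SE 0.08), Rplp0 had -0.11 (SE 0.08) and Rplp1 had -0.17 (SE 0.10). Rpl13a, a part of the GAIT complex, had -0.24 (SE 0.09, adjusted p = 0.061) and Rpl36a had -0.12 (SE 0.08).

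The single compounds were set side by side at the doses given, which differ in mg/kg, and compared within the same model. CTD minus THI called 6 members, of which 5 were lower and 1 higher in CTD, at a background of 6.61% of all genes. CTD minus IMZ called 6 as well, 5 lower and 1 higher, at a background of 4.67%. With 8.22% of members called in each, the share of the family lay above that of all genes. It lay below that of the genes at or above the 5th percentile of the members' average level. Of those, 11.3% were called in CTD minus THI and 9.17% in CTD minus IMZ. The comparisons share the CTD rats, and in each the 6 were Rps16, Rps28, Rps15, Rpl38, Rplp2 and, with the higher level in CTD, the larger row of Rps24. Rps16 had 50.6, 54.9, 69.2 and 69.1 CPM in the THI rats and 54.8, 75.5, 69.8 and 63.5 in the IMZ rats. The log2 difference was -2.42 (SE 0.26, adjusted p = 3.682e-07) between CTD and THI and -2.53 (SE 0.26, adjusted p = 1.014e-07) between CTD and IMZ. For Rps28 these differences were -0.56 (SE 0.09) and -0.49 (SE 0.09). Rpl38 had -0.40 (SE 0.08) against THI, and Rps15 had -0.43 (SE 0.09) against IMZ. When only the groups compared entered the fit, 2 members were called in each comparison. THI minus IMZ called no member by edgeR or DESeq2, none was below an unadjusted p of 0.05, and 0.01% of all genes were called.

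THI and CTD are both neonicotinoids, which carry a cyano group in thiacloprid and a nitro group in clothianidin. Their doses differed in mg/kg, each being the level that the paper calls high. The paper set its mixtures to be equipotent by provisional relative potency factors, taken from the maximal doses of the single compounds. The THI values of the members called were -0.22 (SE 0.19) for Rps16, -0.15 (SE 0.07) for Rps28 and -0.13 (SE 0.07) for Rps15 beside the CTD values given above.

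Each mixture was also compared with the sum of the log2 fold changes of its compounds, weighted by dose (0.5 for THI and IMZ and 0.47 for CTD). In IMZ+CTD 9 members lay above the sum and none below, which is 12.3% of the members, while 1.16% of all genes were called and 0.693% lay above the sum. Among the genes at or above the 5th percentile of the members' average level 2.41% were called. The median difference was 0.18 over the members, against -0.02 over all genes, and 69 of 73 members had a positive value. Rps16 differed most, by 1.50 on the log2 scale (SE 0.18, adjusted p = 1.866e-05). Rps28 had 0.37 (SE 0.07, adjusted p = 5.654e-03) and Rpl38 had 0.35 (SE 0.06, adjusted p = 3.855e-03). The other 6 were Rps15, Rps20, Rps29, Rpl10a, Rpl31 and Rpl41, with differences between 0.24 and 0.36. Both sums that include CTD use the same 3 CTD rats as the comparison of CTD with control, so that the results are not independent. Rps16, Rps28, Rpl38, Rps15, Rpl10a and Rpl41 were also called lower in CTD. Rpl31, a 60S protein near the exit of the nascent chain, had 131, 124, 126 and 129 CPM in IMZ+CTD, above the 3 CTD rats at 105, 116 and 111 and the 4 IMZ rats at 91.5 to 113. The count rose to 15 without CTD rat 3 and fell to 4 without IMZ+CTD rat 3 and to 5 without IMZ+CTD rat 4.

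In THI+CTD 1 member, Rps16, lay above the dose-weighted sum, by 1.25 on the log2 scale (SE 0.18, adjusted p = 3.535e-04), at a background of 0.286% of all genes. The median over the members was -0.05 here, with 55 values below 0. In THI+IMZ none was called by edgeR or DESeq2 (0.0151% of all genes), 2 were higher at an unadjusted p under 0.05 (3.7% of all genes), and 66 of 73 were positive with a median of 0.07. That median was 0.02 with library totals and 0.01 without THI+IMZ rat 3. Rps16 was lowered at 288 mg/kg CTD alone and overlapped the control range in both mixtures that held CTD at 134 or 135 mg/kg, where 1 of the 8 rats lay below the lowest control.

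**Figure D4:**
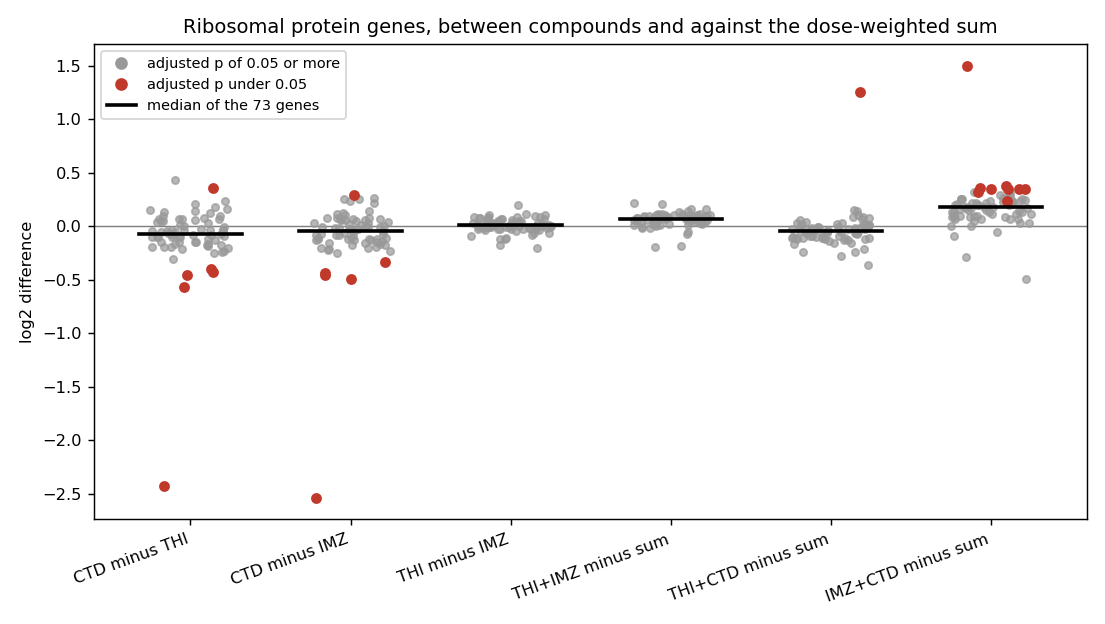
Log2 difference (vertical axis) of the 73 ribosomal protein genes between single compounds and between each mixture and its dose-weighted sum (horizontal axis), with 1 point per gene, red where the adjusted p is under 0.05, and a bar at the median. Rps16 is the point near -2.5 in both comparisons of CTD and the point at 1.25 and 1.50 in the mixtures that held CTD.

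The genes next to the family in function did not all move as its members did. Fau, whose product is cleaved to the 40S protein Rps30, fell in CTD by 0.46 on the log2 scale (SE 0.08, adjusted p = 1.491e-04). Gnb2l1, the 40S scaffold RACK1, had a log2 difference of -0.13 (SE 0.08) and did not pass the test. Among the 7 RP-like paralogs tested, Rpl22l1, a paralog of Rpl22, rose in CTD, with 19.04, 13.1 and 18.5 CPM against controls between 8.47 and 12.3 (log2 fold change 0.72, SE 0.15, adjusted p = 1.125e-03). Rpl7l1 fell there by 0.49 (SE 0.09, adjusted p = 3.475e-04), and none of the 7 was called in another treated group. A further like row outside that list, Rps15al4, fell in THI+CTD by 0.75 (SE 0.20, adjusted p = 0.0207). Its level was low, at 1.01, 1.05, 0.7 and 1.97 CPM in these rats, and the fourth lay within the control range of 1.83 to 2.36. Of 10 S6 kinase genes, some of whose products phosphorylate Rps6, Rps6ka3 rose in CTD by 0.50 (SE 0.15) and Rps6kc1 fell by 0.38 (SE 0.08).

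In CTD 6.62% of all genes tested rose and 6.03% fell, which is the background for the list counts from here on. Among the genes at or above the 5th percentile of the members' average level 21.9% were called. Of 24 genes for elongation factors and other TOP mRNAs, 4 rose and 3 fell in CTD, with a median of 0.15, which has the opposite sign to that of the members. Nap1l1 rose by 0.76 (SE 0.12), Tpt1 rose by 0.32 (SE 0.08) and Naca fell by 0.38 (SE 0.10) on the log2 scale. In THI+CTD none of the 24 was called. Of 62 ribosome biogenesis genes 5 rose and 3 fell in CTD, among them the nucleolar methyltransferase Fbl, which rose by 0.99 (SE 0.13), and Nat10, which fell by 0.63 (SE 0.13). Of 34 genes for mTORC1 and TOP mRNA control 2 rose and 9 fell in CTD. Rptor, the mTORC1 scaffold, fell by 0.56 (SE 0.09), Rragc rose by 0.49 (SE 0.09) and Larp1 fell by 0.51 (SE 0.10). In THI+CTD 1 of these 34 rose and none fell.

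Of 27 translation initiation genes 7 rose and 3 fell in CTD. Of 41 mitochondrial ribosomal protein genes 1 rose and 5 fell, with a median of -0.04, and Mrpl40 fell by 1.32 on the log2 scale (SE 0.14). Of 77 nuclear genes of the respiratory chain 2 rose and 18 fell, with a median of -0.13, and Ndufb7 fell by 1.145 (SE 0.10). Of 38 proteasome genes 5 rose and 3 fell. In THI+CTD 1 of the 41 mitochondrial ribosomal protein genes and 5 of the 77 respiratory chain genes fell, and none rose. Of all genes 1.71% fell in that mixture. There, 27 of the 30 cell division genes rose, with a summed level of 43.5 to 113 CPM, and 6 of 15 Kupffer cell and macrophage markers fell, with 605 to 776 CPM. In IMZ+CTD, where no member passed, 28 of the 30 cell division genes rose, with 61.6 to 164 CPM.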

How the data were processed

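Total RNA of 31 rat livers was sequenced in pairs after stranded library preparation. According to the submitters' processing notes, the authors trimmed reads with Skewer 0.2.2, checked them with FastQC 0.11.5, aligned them with STAR 2.5.2b to Rnor_5.0 and normalized with DESeq2 1.15.1. The deposited count table holds whole-number gene counts made by the authors from these alignments. The deposited normalized table holds a signal, the same counts divided by 1 size factor per library, and was used only for that check. The annotation release and the strand setting of the counting are not given in the sources used here, so that reads of overlapping or antisense genes cannot be told apart. Per the study's supplement only reads with a single alignment entered the analyses, so that members with near-identical copies lose reads.

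Raw counts were scaled by TMM and fitted with edgeR 4.0.16 in R 4.3.3 (glmQLFit and glmQLFTest), with 7 group means over all 31 rats and every gene whose counts summed to 2 or more. There were 12 contrasts, and a Benjamini-Hochberg adjusted p under 0.05, taken over the 19904 genes, was called. DESeq2 1.42.0 was an alternative. Rows without a gene name held 2.19% of counts and are no members. CPM are not corrected for transcript length, so that levels were not compared between genes. Intervals are 1.96 SE on either side. The depth of 31820322 to 101230067 counts bounds counting error only. On simulated counts in CTD against control, 94% of genes changed by 1 on the log2 scale and 14% of those changed by 0.5 were recovered, over 19365 genes. Every simulated gene was given the same coefficient of variation between rats, 19.4%, so that these rates are not those of the members.

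The members, the gene lists and the genes named were chosen with earlier results of these data known. The genes named were a fixed set of 17 symbols with key roles, and per comparison with control the 3 called members with the highest and lowest log2 fold change, or, where fewer than 2 passed, the highest and lowest among members with an average log2 CPM above 3. Added to them were the 3 members with the widest spread within groups, members called in the other contrasts, and up to 3 genes of each list. The other members called in CTD, THI+CTD and IMZ+CTD, and those with 2 rows, were named after their values were seen.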

Additional observations from a re-analysis of the deposited data

Results flagged for a closer look

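Single rats stood apart from their group in 8 of 180 sets of values by Dixon's criterion at the 95% level, which chance alone exceeds in about 1 of 20 sets. The larger row of Rps24 reached 102.5 CPM in THI rat 4, with the other THI rats at 95.3 to 96.4. Rpl36 reached 66.31 CPM in control rat 3 (others 56.5 to 61) and Rplp0 reached 578.1 in control rat 2 (others 464 to 506). Rpsa was at 325.0 CPM in IMZ rat 1 (others 375 to 383), and Rpl10 was at 351.4 in IMZ+CTD rat 1 (others 391 to 395). In THI+IMZ rat 3, Rpl13a reached 235.8 CPM (others 200.2 to 200.7) and Rpl36a reached 39.56 (others 30.1 to 31.7). Rpl30 was at 59.05 CPM in control rat 7, with the other controls at 78.7 to 92.5.

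The effects of the single compounds differed for 6 members by the test of the difference itself, at doses that differed in mg/kg. These were 8.22% of the members in each comparison. Of all genes 6.61% were called in CTD minus THI and 4.67% in CTD minus IMZ. Among the genes at or above the 5th percentile of the members' average level the shares were 11.3% and 9.17%. Between CTD and THI the log2 difference was -2.422 for Rps16 (adjusted p = 3.68e-07), -0.5634 for Rps28 (adjusted p = 1.345e-04), -0.4025 for Rpl38 (adjusted p = 0.0015), -0.4318 for Rps15 (adjusted p = 0.00251), -0.4566 for Rplp2 (adjusted p = 0.00925) and 0.3528 for the larger row of Rps24 (adjusted p = 0.00224). Between CTD and IMZ it was -2.534 for Rps16 (adjusted p = 1.01e-07), -0.488 for Rps28 (adjusted p = 0.00103), -0.4336 for Rps15 (adjusted p = 0.00369), -0.331 for Rpl38 (adjusted p = 0.0123), -0.4546 for Rplp2 (adjusted p = 0.0136) and 0.2894 for the larger row of Rps24 (adjusted p = 0.017). All 3 CTD rats had less Rps16, Rps28, Rps15, Rpl38 and Rplp2 mRNA than every THI and IMZ rat.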

How the results depend on the processing

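The settings tried were DESeq2's Wald test, median-of-ratios factors, library totals, TMM factors computed without the members, other low-count filters, a fit limited to the compared groups, a replicate block, other definitions of the members, and leaving out each rat. Rps16 kept its direction and its call under every one of these that was run for the comparisons with CTD. The number of members called in CTD, 18 with the settings of the report, was 9 with library totals and 9 (all lower) with the replicate block. In THI+CTD, 10 became 3 with library totals, 16 with edgeR's filterByExpr, 6 with no filter, 3 with the replicate block and 20 with DESeq2. In IMZ+CTD, 0 became 1 with filterByExpr and 1 with DESeq2. In CTD minus THI and CTD minus IMZ, 6 became 2 in each when only the groups compared were fitted. Against the dose-weighted sum, THI+CTD went from 1 to 3 with DESeq2, and IMZ+CTD from 9 to 3 with library totals, 15 with filterByExpr and 24 with DESeq2. The median log2 difference of the members went from 0.01 to -0.06919 for THI minus IMZ and from 0.18 to 0.08322 for IMZ+CTD against the sum, both with library totals. The cause of these shifts was not tested.

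Leaving out 1 rat at a time gave 7 to 25 members called in CTD, with a median log2 fold change between -0.2238 and -0.08972, 3 to 15 in THI+CTD, and 4 to 15 in IMZ+CTD against the sum. The highest counts were reached without CTD rat 3 in the first and last of these, and without THI+IMZ rat 3 or THI+CTD rat 4 in THI+CTD. Leaving out the 10 most abundant genes from the total gave shares of 1.318% in controls, 1.254% in THI, 1.291% in IMZ, 1.245% in CTD, 1.291% in THI+IMZ, 1.24% in THI+CTD and 1.398% in IMZ+CTD. Of the named values, the call was lost in 14 fits without a change of sign, 4 of them for Rps24 and 8 for Rps14 in THI+CTD, and 1 each for Rpl38 (CTD minus THI) and Rps15 (CTD minus IMZ). Of 78 pairs of rats with the same replicate number 15 had deviations correlated above 0.1, over a range of -0.284 to 0.404. Pairs with different numbers were not correlated, so that these values cannot show whether the numbers mark a shared batch. Rpl12, with a mean of 34.97 counts, is the 1 member under a mean of 100. The simulated recovery of a change of 0.5 on the log2 scale held for 1 spread given to all genes. It does not describe the members, whose median spread within groups was below that of other genes at their level.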
